A study of Mus musculus with 6 samples.

Results

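The genes described here are 10 that sense bacterial and viral products at the cell surface or in endosomes: the Toll-like receptor genes Tlr1 to Tlr6, the lipopolysaccharide (LPS) co-receptor genes Cd14 and Ly96, and the adaptor genes Myd88 and Tirap. They were picked by symbol from a table of 55011 genes, and all 10 were found there. All 10 also passed the filter on low counts that left 12296 genes to test. The table comes from messenger RNA of cultured stromal cells of mouse visceral fat, which the labels give as VAT and the design text as eWAT. The cells lacked the EGFP signal that marks Il33 expression (genotype label Il33-EGFP-). Treatment lasted 3 days, with PBS, a buffered salt solution, in 3 libraries and 10 nM irisin/HSP90α, called irisin below, in the other 3. Irisin is a hormone released from the membrane protein FNDC5 of muscle, and HSP90α is a heat shock protein and chaperone. Titles of the treated samples mention only irisin, and the labels say nothing of HSP90α in the PBS wells, of the number of animals or of their age. The design has a single dose and a single time, and its stated question is whether fat precursors turn into immunomodulatory cells.

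Toll-like receptors are membrane proteins with an outer horseshoe of leucine-rich repeats and an inner TIR domain that binds adaptors. Tlr4 recognises LPS of Gram-negative bacteria together with MD-2, the product of Ly96, after CD14 has handed the lipid over. Tlr2 recognises bacterial lipopeptides as a pair with Tlr1 or Tlr6, Tlr5 recognises flagellin, and Tlr3 recognises double-stranded RNA in endosomes. All of these receptors except Tlr3 signal through MyD88, which Tirap brings to Tlr2 and Tlr4, and Tlr3 uses the adaptor TRIF. Fat stromal cells and adipocytes are known to carry several of these receptors and to answer LPS with cytokines and chemokines.

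Of the 10 genes, Tlr2 and Tlr3 rose with irisin, none fell, and the LPS receptor Tlr4 with its partners did not pass the test. Tlr2 was 3.08-fold higher and Tlr3 1.64-fold higher. A gene was called where its p from edgeR's quasi-likelihood test was under 0.05 after adjustment over every gene tested. By that rule 7.42% of all genes were called in either direction, 4.2% as higher and 3.22% as lower, against 2 of the 10 as higher. At an unadjusted p under 0.05, 3 of the 10 were higher and 1 was lower, and DESeq2 likewise called 2 higher and 0 lower. The median log2 fold change of the 10 genes was 0.38, and that of all genes tested was -0.01.

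Total counts per library were 5271309 to 6745799, so that 1 count was worth 0.145 to 0.193 CPM (a count relative to its library's total, scaled between libraries by TMM factors). A count of 0 allows a level of up to 0.435 to 0.580 CPM, the worth of 3 counts. On the second principal component (24.5% of variance) PBS replicate 3 and irisin replicate 1 stood apart from the other 4 libraries, and results below are given without them where that matters. Nothing in the labels ties the replicates to separate wells, cultures or animals, so the p-values rest on a spread between samples that may be technical only. All 10 fat stromal markers were detected, with a summed level of 37745 to 45284 CPM in PBS and 51219 to 56097 CPM in irisin that came mostly from the collagen genes Col1a1, Col1a2 and Col3a1. The markers did not move together: Pdgfra and Col1a1 rose (log2 fold changes 0.60 and 0.49), Lum, Thy1 and Cd34 fell (-0.76, -1.30 and -1.40), and the other 5 did not pass. Since Toll-like receptors and CD14 are abundant on myeloid cells, 18 macrophage markers were summed as well. That sum was 67.0 to 85.1 CPM in PBS and 63.0 to 88.9 CPM in irisin (exact two-sided permutation test, p = 0.9, where 3 against 3 can give no less than 0.1). Csf1r made up most of it, at 59.7 ± 5.54 (SD, n = 3) and 59.2 ± 5.16 CPM. The test of the sum therefore mostly reflects Csf1r and is no measure of macrophages. Cd68 and Lyz2 also passed the filter on counts. Cd68 had 44, 17 and 14 counts in PBS and 14, 14 and 17 in irisin, and Lyz2 had 45, 40 and 63 and 43, 22 and 111. Several other leukocyte and macrophage genes were at or near 0: Ptprc (CD45) had 0 to 3 counts per library. Itgam had 1 count in irisin replicate 3 and 0 elsewhere, and Cd163 and C1qa had none. Adgre1 (F4/80) had 8 counts in PBS replicate 3, 10 in irisin replicate 3 and 0 in the other 4 libraries. Summed neutrophil markers lay between 1.11 and 2.88 CPM and lymphoid and mast cell markers between 0.800 and 2.38 CPM. Endothelial markers summed to 31.1 to 38.3 CPM in PBS and 19.9 to 27.0 CPM in irisin, and mesothelial markers to 37.2 to 42.9 and 44.1 to 54.0 CPM. A single gene made up most of each sum: Tek (means 33.8 and 22.4 CPM) and Wt1 (37.5 and 43.2 CPM). Pecam1 had 0 to 6 counts per library, Cdh5 0 to 5 and Msln 0 to 3, while Krt18 had 0 to 42. These sums are therefore no measure of endothelial or mesothelial cells. Of 8 adipocyte markers 6 were tested and all 6 fell, with sums of 176 to 267 CPM in PBS and 44.2 to 52.6 CPM in irisin. In bulk RNA, fewer cells of a type and less RNA per cell cannot be told apart. The part of the stromal, macrophage, adipocyte, endothelial and mesothelial markers in the results below was not tested.

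Stretches before the start sites of Tlr2, Tlr3 and Myd88 are shown because the first 2 genes rose and Myd88, the adaptor downstream of most of these receptors, did not pass. RefSeq's promoter table (GRCm38.p6) held 7 of the 10 genes, namely Tlr1, Tlr2, Tlr3, Tlr5, Tlr6, Myd88 and Tirap, with 10 start sites in all. The 250 bases before each start were searched on both strands for the NF-kB consensus, for the core of the interferon-stimulated response element (GAAA, any 2 bases, GAAA), and for TGANTCA, the AP-1 motif. Capitals mark the matches, and positions count back from -1, the base before the RefSeq start.
Tlr2, chr3:83841768-83841858, minus strand, positions -250 to -160: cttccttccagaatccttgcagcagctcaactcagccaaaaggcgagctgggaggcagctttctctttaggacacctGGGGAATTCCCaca
Tlr3, chr8:45410572-45410601, minus strand, positions -221 to -192: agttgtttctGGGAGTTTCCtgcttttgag
Myd88, chr9:119340042-119340268, minus strand, positions -250 to -24: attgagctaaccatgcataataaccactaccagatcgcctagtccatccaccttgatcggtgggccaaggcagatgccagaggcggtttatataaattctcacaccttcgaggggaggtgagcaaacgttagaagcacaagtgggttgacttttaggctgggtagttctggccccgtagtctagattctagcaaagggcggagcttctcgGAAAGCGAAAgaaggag

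The NF-kB consensus was present in the windows of Tlr2 and Tlr3 and in none of the other 8 windows, which belong to the other 5 genes. It occurred in 1281 of all 32851 promoters of the table (3.9%). In Tlr2 the capitals hold overlapping matches between positions -173 and -163, just before the first base of the GENCODE transcript, and in Tlr3 the match at -211 to -202 lies in an exon of the GENCODE annotation. Of the 250 bases, 159 in Tlr2, 178 in Tlr3 and 0 to 211 in the other windows lie in annotated exons of the gene. The windows are thus of unlike kind, which limits a comparison between genes. The interferon response core was present in Myd88 at -40 to -31 and in overlapping matches in Tlr6, and in 2.98% of all promoters. The AP-1 motif was in none of the 10 windows and in 6.75% of all promoters. Across the genes tested that have a promoter in the table, 43 of 508 with the NF-kB consensus were called higher (8.46%) and 348 of 8894 without it (3.91%). For the interferon response core these shares were 7.0% with a match and 4.07% without, and for the AP-1 motif 5.04% and 4.11%. Genes called lower made up 3.74% with and 3.01% without the NF-kB consensus, 2.0% and 3.09% for the interferon response core, and 6.01% and 2.88% for the AP-1 motif. The shares are descriptions, and no difference between motifs was tested. A match is a string of letters and not a measured site, and these data hold no measurement of binding.

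Tlr2, the lipopeptide receptor, had the largest log2 fold change of the 10. Its levels were 13.9, 13.3 and 12.7 CPM in PBS replicates 1, 2 and 3 and 41.4, 37.9 and 44.0 CPM in irisin replicates 1, 2 and 3. Every irisin library (196 to 280 counts) lay far above every PBS library (69 to 96 counts). The means were 13.3 ± 0.615 and 41.1 ± 3.07 CPM (SD, n = 3), with a log2 fold change (irisin against PBS) of 1.62 ± 0.13 (SE; adjusted p = 4.72e-06, edgeR) and a 95% interval of 2.52-fold to 3.76-fold. It remained called in all 15 alternatives, with log2 fold changes from 1.55 to 1.68. With PBS replicate 3 and irisin replicate 1 left out its log2 fold change was 1.59.

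Tlr1 and Tlr6, whose products pair with Tlr2, were rare messages and did not pass. Tlr1 stood at 3.19, 3.17 and 3.13 CPM in PBS and at 5.28, 3.48 and 5.03 CPM in irisin, so the groups did not overlap, but irisin replicate 2 came close to PBS. The log2 fold change of Tlr1 was 0.55 ± 0.28 (SE; edgeR adjusted p = 0.346), on 17 to 33 counts per library. Tlr6 stood at 2.03, 3.64 and 3.13 CPM in PBS and at 4.0, 3.09 and 4.40 CPM in irisin, and the groups overlapped. Its log2 fold change was 0.40 ± 0.32 (SE; edgeR adjusted p = 0.598), on 14 to 28 counts. The 95% intervals reached from 0.953-fold to 2.24-fold for Tlr1 and from 0.817-fold to 2.14-fold for Tlr6, so a rise as large as that of Tlr2 lies outside them while a 2-fold rise lies inside. Per library there were 4.06 to 4.36 Tlr2 counts for each Tlr1 count in PBS and 7.85 to 10.9 in irisin (exact two-sided permutation test, p = 0.1, the smallest that 3 against 3 allows). For Tlr6 the ratio was 3.65 to 6.86 in PBS and 10.0 to 12.3 in irisin (exact two-sided permutation test, p = 0.1).

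Tlr1 and Tlr6 are neighbours on chromosome 5 and are close copies, which limits how their counts can be read. Tlr1 lies from 64924679 to 64933563 and Tlr6 from 64952031 to 64960097 on the minus strand, 18467 bases apart (GRCm38, GENCODE M21). Of the 50-base windows of their transcripts, 454 occur in both genes, which is 13.6% of those of Tlr1 and 12.3% of those of Tlr6. How the authors' counting treated reads from such stretches is not given in the sources used here, so the split between both genes is uncertain. Tlr2 (chromosome 3, 83836272 to 83841767, minus strand) shared no such window with any other gene and no exon base with another annotated gene.

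Tlr3, the sensor of double-stranded RNA, also rose. Its levels were 16.7, 13.5 and 17.5 CPM in PBS and 26.1, 23.8 and 28.3 CPM in irisin. All irisin libraries lay above all PBS libraries, and PBS replicate 2 was the lowest of the 6. The means were 15.9 ± 2.13 and 26.0 ± 2.26 CPM (SD, n = 3), with a log2 fold change of 0.72 ± 0.15 (SE; adjusted p = 0.0110, edgeR). The call of Tlr3 was lost without PBS replicate 2 (adjusted p = 0.0588, edgeR) and without irisin replicate 3 (0.0683), with log2 fold changes of 0.61 and 0.65. It held in the other 13 alternatives. Tlr3 lies on chromosome 8 from 45395665 to 45411080, and 381 of its exon bases are shared with an antisense gene on the opposite strand, so its counts are uncertain to that extent if counting ignored strand.

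Tlr5, the flagellin receptor, stood at 4.21, 4.12 and 3.50 CPM in PBS and at 4.96, 7.34 and 7.07 CPM in irisin. The groups did not overlap, and irisin replicate 1 was the irisin library nearest to PBS. Its log2 fold change, 0.70 ± 0.26 (SE; edgeR adjusted p = 0.152), was about that of Tlr3, on 19 to 45 counts per library, and it passed in none of the 14 alternatives that tested it. Tlr1, Tlr2, Tlr3 and Tlr5 are the 4 of 10 genes whose groups did not overlap, all with irisin above PBS, against 23.6% of all genes tested in either direction.

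**Figure D1:**
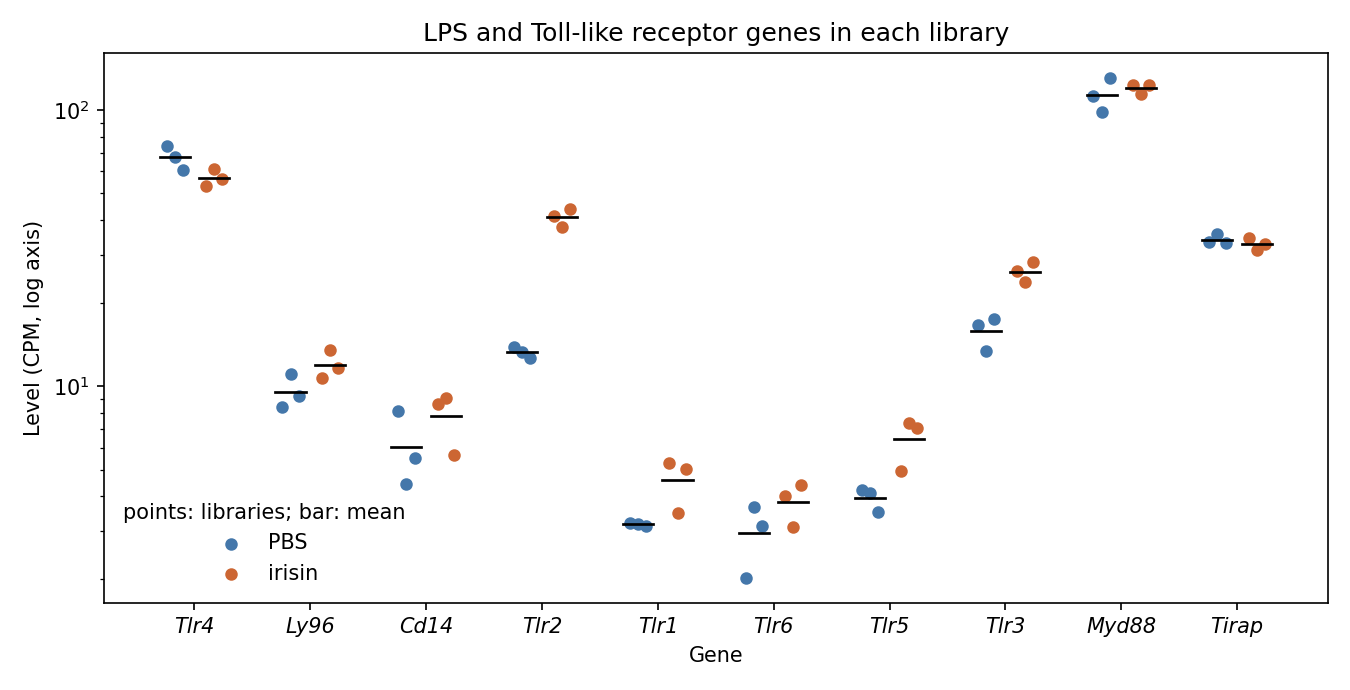
Level of each gene in each library in CPM on a log axis, PBS in blue and irisin in orange, with the group mean as a bar (3 libraries per group). Tlr2 moves from a mean of 13.3 to 41.1 CPM and Tlr3 from 15.9 to 26.0 CPM, while the points of Tlr4, Ly96, Cd14, Tlr6, Myd88 and Tirap overlap between groups.

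Neither Tlr4, the LPS receptor, nor its partners Ly96 and Cd14 passed. Tlr4 was at 73.9, 67.5 and 60.8 CPM in PBS and 53.3, 61.5 and 56.1 CPM in irisin. Irisin replicate 2 lay above PBS replicate 3, so the groups overlapped. The log2 fold change of Tlr4 was -0.25 ± 0.11 (SE; edgeR adjusted p = 0.261), negative in all 15 alternatives and called in none, with adjusted p from 0.0831 to 0.605. Its 95% interval ran from 0.714-fold to 0.997-fold, so a rise like that of Tlr2 or Tlr3 lies outside it. Reads of Tlr2 per read of Tlr4 went from 0.189 to 0.209 in PBS to between 0.616 and 0.784 in irisin (exact two-sided permutation test, p = 0.1, the smallest possible here).

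Ly96, which encodes the LPS-binding subunit MD-2, stood at 8.42, 11.1 and 9.21 CPM in PBS and at 10.7, 13.5 and 11.6 CPM in irisin. PBS replicate 2 lay above irisin replicate 1, and the log2 fold change was 0.32 ± 0.19 (SE; edgeR adjusted p = 0.446). Cd14, the co-receptor that passes LPS on, stood at 8.13, 4.44 and 5.52 CPM in PBS and at 8.64, 9.08 and 5.66 CPM in irisin. PBS replicate 1 and irisin replicate 3 crossed over, the spread within each group was as wide as the difference, and the log2 fold change was 0.35 ± 0.28 (SE; edgeR adjusted p = 0.594). On 28 to 56 counts per library the 95% interval of Cd14 ran from 0.840-fold to 1.94-fold. Tlr4 lies on chromosome 4 (66827584 to 66930284) and Ly96 on chromosome 1 (16688051 to 16709611), and neither shares exon bases with another annotated gene.

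The adaptors Myd88 and Tirap had the smallest log2 fold changes of the 10. Myd88 was at 112, 98.1 and 131 CPM in PBS and at 124, 114 and 123 CPM in irisin, with the irisin values inside the range of PBS. Its log2 fold change was 0.08 ± 0.11 (SE; edgeR adjusted p = 0.789), with a 95% interval from 0.899-fold to 1.25-fold. Tirap was at 33.2, 35.7 and 33.0 CPM in PBS and at 34.6, 31.1 and 32.7 CPM in irisin, with a log2 fold change of -0.05 ± 0.12 (SE; edgeR adjusted p = 0.898) and an interval from 0.812-fold to 1.15-fold. Myd88 (chromosome 9, 119335934 to 119341411) shares 290 exon bases with Acaa1a on the opposite strand, and Tirap (chromosome 9, 35184551 to 35200291) shares 485 with genes on the opposite strand.

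**Figure D2:**
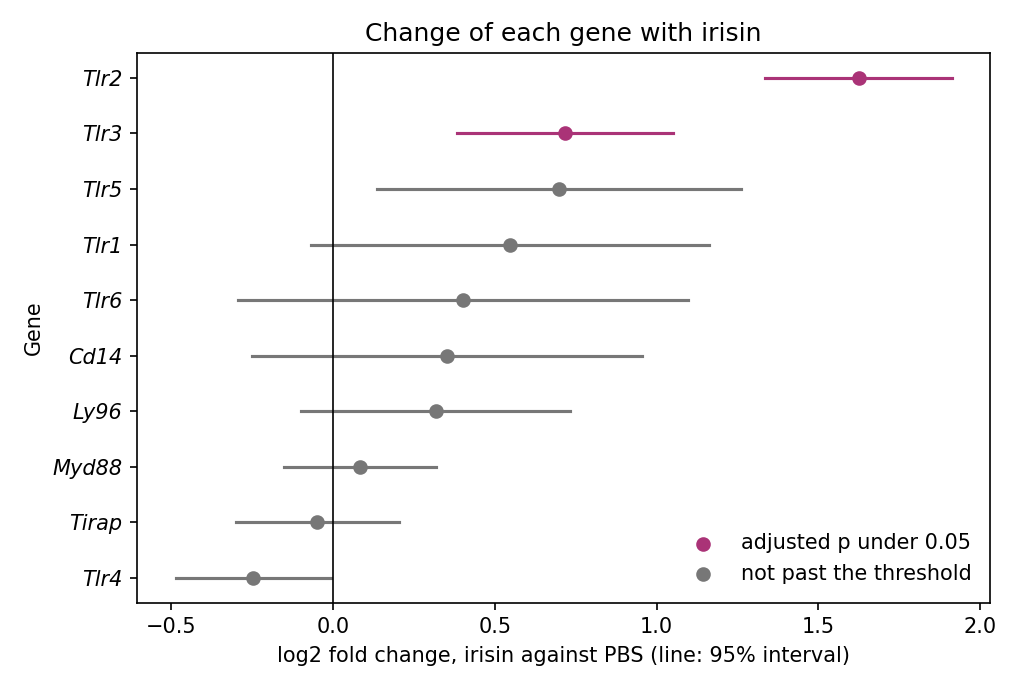
Log2 fold change of each gene, irisin against PBS, with its 95% interval from the edgeR fit. Tlr2 at 1.62 and Tlr3 at 0.72 passed the threshold, and the other 8 lie between -0.25 (Tlr4) and 0.70 (Tlr5).

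Divided by the joined length of all annotated exons of each gene, the levels gave an approximate order between genes. That length was 5.556 kb for Tlr4, from 4 transcripts, and 3.014 kb for Tlr2, from 1 transcript. The order would shift if the cells made mainly a shorter transcript, which was not tested. Before this division Tlr4 lay above Tlr2 in irisin too (means 56.9 and 41.1 CPM). In PBS, Myd88 was highest at 44.1 ± 6.35 CPM per kb, followed by Tlr4 (12.1 ± 1.18), Ly96 (9.37 ± 1.35), Tirap (6.89 ± 0.301), Tlr2 (4.42 ± 0.204), Cd14 (3.48 ± 1.10) and Tlr3 (3.05 ± 0.409; SD, n = 3 for each). Tlr1, Tlr5 and Tlr6 were near or below 1 CPM per kb, at 0.946 ± 0.00952, 0.823 ± 0.0808 and 0.788 ± 0.221. The libraries of Tlr2 and Cd14, of Cd14 and Tlr3, and of Tlr5 and Tlr6 overlapped, so these neighbours in the order do not differ beyond their spread. In irisin, Tlr2 was next after Myd88, at 13.6 ± 1.02 CPM per kb against 11.7 ± 1.40 for Ly96 and 10.2 ± 0.747 for Tlr4. Those of Tlr2 and Ly96 overlapped, and so did those of Ly96 and Tlr4. The lowest Tlr2 library in irisin (12.6 CPM per kb) nevertheless lay above the highest Tlr4 library (11.1), whereas in PBS the highest Tlr2 library (4.62) lay below the lowest of Tlr4 (10.9).

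**Figure D3:**
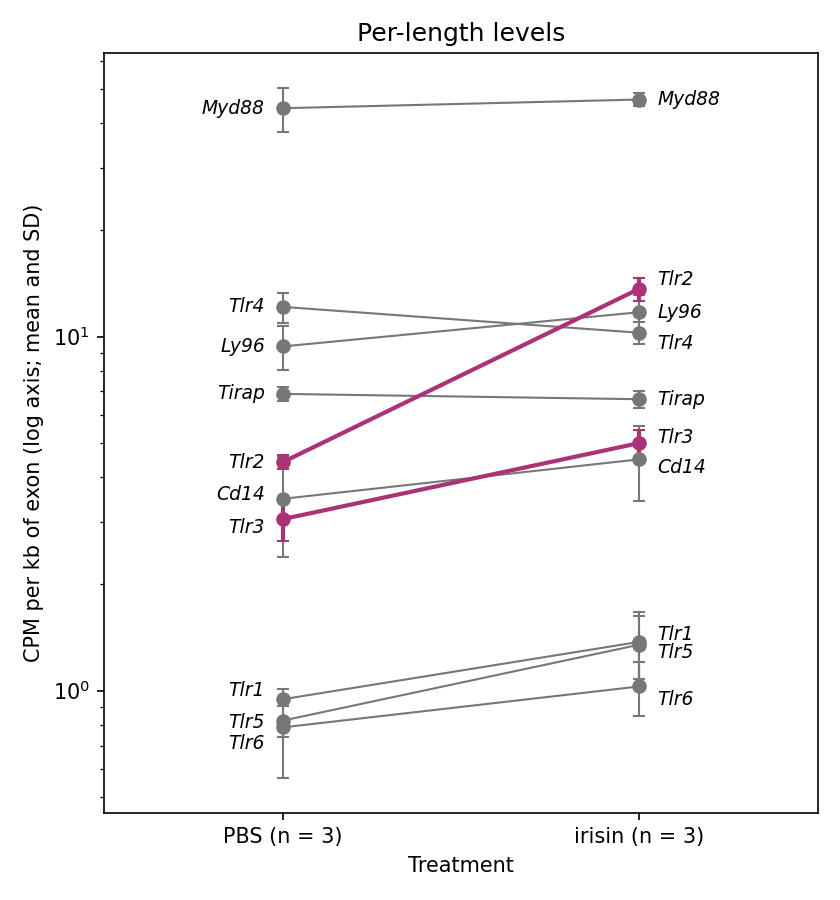
Mean level per kb of exon with SD (n = 3) in PBS and in irisin, on a log axis, with the genes that passed the test in purple. Tlr2 moves from 4.42 to 13.6 CPM per kb and crosses Tirap, Ly96 and Tlr4, and Tlr1, Tlr5 and Tlr6 stay lowest.

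The 5 genes whose log2 CPM followed Tlr2 most closely over the 6 libraries were Ifnar2, a subunit of the type I interferon receptor (Pearson r = 0.998), Nfkbiz, a nuclear co-regulator of NF-kB (0.997), the serine protease inhibitor Serpina3f (0.997), the adenosine receptor Adora2b (0.997) and the neutrophil chemokine Cxcl1 (0.996). Ifnar2 went from 131 ± 9.38 to 315 ± 10.9 CPM and Adora2b from 48.4 ± 0.660 to 121 ± 6.26 CPM (SD, n = 3). These r values rest mostly on the step between the groups, and 311 genes had r over 0.95 with Tlr2.

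Of the other Toll-like receptors and their accessory proteins, 7 of 15 passed the filter on counts, 1 rose and 1 fell. The share called, 28.6% against 7.42% of all genes tested, rests on 2 genes. This list and those below were chosen with earlier results of these data known, so their shares are no independent evidence. Lbp, the secreted protein that carries LPS to CD14, rose from 150 ± 13.4 to 207 ± 13.9 CPM (log2 fold change 0.46 ± 0.09, edgeR adjusted p = 0.00765), a call lost without irisin replicate 2 (adjusted p = 0.0671). Cd36, a fatty acid transporter that also serves Tlr2 with Tlr6 as a co-receptor, fell from 166 ± 16.8 to 42.1 ± 3.03 CPM, and it is an adipocyte gene as well. The chaperones and transport proteins Hsp90b1, Cnpy3 and Unc93b1, which bring receptors to their membranes, did not pass (log2 fold changes between -0.01 and 0.17). Tlr7 had 3 to 11 counts per library and was tested but did not pass (log2 fold change 0.76, edgeR adjusted p = 0.505). Tlr9, Tlr12 and Tlr13 had 0 to 3 counts, and Tlr11 had none. Cd180 had 18, 8 and 16 counts in PBS and 2, 7 and 4 in irisin, and the filter left it untested. Tlr8, a sensor of single-stranded RNA that was singled out after its values were seen, had 9, 17 and 17 counts in PBS and 1, 1 and 6 in irisin. It did not pass the filter, and without a filter its log2 fold change was -2.35 (edgeR adjusted p = 0.00659). The edgeR adjusted p of Tlr2 was 8.29e-21 without a filter, against 4.72e-06 with it, so p-values of the unfiltered fit are not comparable with the others. Tlr8 was also kept and called lower without PBS replicate 1 (-2.64, adjusted p = 0.0348) and without irisin replicate 3 (-3.59, adjusted p = 0.0231).

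Most of the adaptors and kinases downstream of the receptors did not pass. Of 29 listed genes 25 were tested, 3 rose, 0 fell by edgeR and by DESeq2 (1 was lower at an unadjusted p under 0.05), and the median log2 fold change was 0.04. The share called was 12%, against 7.42% of all genes tested. Traf3, which directs signals towards interferon, rose from 22.7 ± 3.33 to 38.7 ± 3.07 CPM (log2 fold change 0.77 ± 0.14, edgeR adjusted p = 0.00355). Ikbke, a kinase related to Tbk1, rose from 32.0 ± 3.58 to 60.1 ± 2.09 CPM (0.91 ± 0.12, edgeR adjusted p = 0.000225). Map3k8 (Tpl2), which links the pathway to ERK, rose from 23.6 ± 3.47 to 45.8 ± 6.88 CPM (0.96 ± 0.15, edgeR adjusted p = 0.00109). For Irak1, Irak4, Traf6, Ticam1 (TRIF) and Tbk1 the log2 fold changes were -0.13, 0.34, -0.10, 0.18 and 0.05, none of them past the threshold. Peli1, named after its values were seen, was called lower without PBS replicate 3 (log2 fold change -0.71, edgeR adjusted p = 0.0329). It encodes a ubiquitin ligase and had 168, 110 and 55 counts in PBS and 72, 55 and 101 in irisin.

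Among negative regulators of the pathway, 20 of 25 were tested, 5 rose and 1 fell, with a median log2 fold change of 0.13. The share called was 30%, against 7.42% of all genes tested. Irak3 (IRAK-M), a kinase-like protein that blocks signalling from MyD88, rose from 81.5 ± 10.1 to 174 ± 6.86 CPM (log2 fold change 1.10 ± 0.10, edgeR adjusted p = 1.45e-05). Tnfaip3 (A20), which removes ubiquitin chains, rose from 6.20 ± 1.29 to 25.6 ± 2.39 CPM, and its partner Tnip1 rose from 43.2 ± 3.84 to 107 ± 11.9 CPM. Nfkbia, which encodes the NF-kB inhibitor IκBα, rose from 88.3 ± 1.93 to 227 ± 16.6 CPM. Zc3h12a (Regnase-1), a nuclease that degrades cytokine messages, rose from 7.28 ± 0.571 to 34.2 ± 2.10 CPM (2.23 ± 0.15, edgeR adjusted p = 8.86e-07). Atf3, a transcription repressor, fell from 17.6 ± 3.51 to 8.69 ± 1.70 CPM (-1.03 ± 0.21, edgeR adjusted p = 0.00758). Tollip, Sarm1 and Cyld did not pass (log2 fold changes -0.07, -0.35 and 0.18). The mRNA-degrading Zfp36 (-0.50, edgeR adjusted p = 0.0791) was called lower without PBS replicate 3 (adjusted p = 0.0242), which brought the falls to 2.

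Another list held 20 genes around the sensing of bacterial products inside the cell, not all of them sensors. Of these 12 were tested, 4 rose and 0 fell (also 0 falls by DESeq2 and 0 at an unadjusted p under 0.05). The share called was 33.3%, against 7.42% of all genes tested. Casp4 (caspase-11), which binds LPS in the cytosol, rose from 19.2 ± 2.98 to 44.8 ± 1.80 CPM (log2 fold change 1.22 ± 0.14, edgeR adjusted p = 6.80e-05). Gbp2, a GTPase that opens bacterial membranes, rose from 54.7 ± 10.4 to 102 ± 5.88 CPM, and Nod1, a sensor of peptidoglycan, from 120 ± 10.6 to 181 ± 14.2 CPM (0.59 ± 0.10, edgeR adjusted p = 0.00170). Gsdmd, the pore protein that caspase-11 cleaves, rose from 63.4 ± 7.91 to 86.5 ± 2.14 CPM (edgeR adjusted p = 0.0227). The call of Gsdmd was lost without any of PBS replicates 1 and 2 and irisin replicates 1, 2 and 3 (adjusted p 0.0702 to 0.117) and with total counts alone (0.0613). Nlrp3, Nlrc4, Aim2 and Nlrp1b had 0 to 3 counts per library.

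Most of the known targets of the MyD88 and NF-kB arm rose. Of 21 listed genes 17 were tested, 14 rose and 1 fell (88.2% called, against 7.42% of all genes tested), with a median log2 fold change of 1.97. Nfkbia and Tnfaip3 also stand among the negative regulators. The genes were listed with results of these data known, so the count is no independent evidence of a direction. The 8 of lowest p were Saa3, Cxcl5, Cxcl1, Ccl2, Sod2, Ccl7, Csf3 and Lcn2, all higher. The 1 that fell was Ptgs2, from 20.4 ± 2.95 to 7.99 ± 0.418 CPM (log2 fold change -1.35 ± 0.18, edgeR adjusted p = 0.000245). Vcam1 rose (0.50, edgeR adjusted p = 0.0216), a call lost without PBS replicate 1 or 2 and without irisin replicate 1 or 3 (adjusted p 0.0729 to 0.0995). With total counts alone it was lost as well (0.0538). Csf3, the granulocyte growth factor G-CSF, had 1 count in each PBS library and 85, 61 and 67 counts in irisin. Ccl7, a monocyte chemokine, rose from 117 ± 20.8 to 623 ± 76.6 CPM (log2 fold change 2.41 ± 0.13, edgeR adjusted p = 2.65e-07). Tnf had 1 to 11 counts per library and Il1b had none.

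Targets of the TRIF and interferon arm varied between libraries of the same group. Of 20 listed genes 14 were tested, 2 rose and 0 fell (14.3% called, against 7.42% of all genes tested). In the lower direction there were also 0 at an unadjusted p under 0.05 and 0 by DESeq2. All 14 log2 fold changes were positive, with a median of 0.77, against 5991 positive of all 12296 genes tested. The groups did not overlap for 21.4% of the 14, against 23.6% of all genes tested. Irf1, a transcription factor, rose from 30.7 ± 3.83 to 46.4 ± 10.1 CPM, and Isg20, an exonuclease, from 18.3 ± 2.16 to 26.6 ± 2.07 CPM (edgeR adjusted p = 0.0398 for each). Both calls were lost without PBS replicate 1 (adjusted p 0.0555 for Irf1 and 0.175 for Isg20), without PBS replicate 2 (0.118 and 0.112) and without irisin replicate 3 (0.209 and 0.179). That of Irf1 was also lost without PBS replicate 3 (0.0567), that of Isg20 without irisin replicate 2 (0.0906), and both without irisin replicate 1 (0.0575 and 0.0817). With total counts alone both were lost as well (0.0665 for Irf1 and 0.0745 for Isg20), and DESeq2 did not call Isg20 (0.0644). Irf7 had 91, 90 and 224 counts in PBS and 299, 116 and 889 in irisin, so that its groups overlapped widely. Isg15 had 27, 18 and 60 counts in PBS and 65, 39 and 196 in irisin, with the same libraries high and low as Irf7. For both genes replicate 3 was the highest of its group in PBS and in irisin. The interferon gene Ifnb1 had no count.

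**Figure D4:**
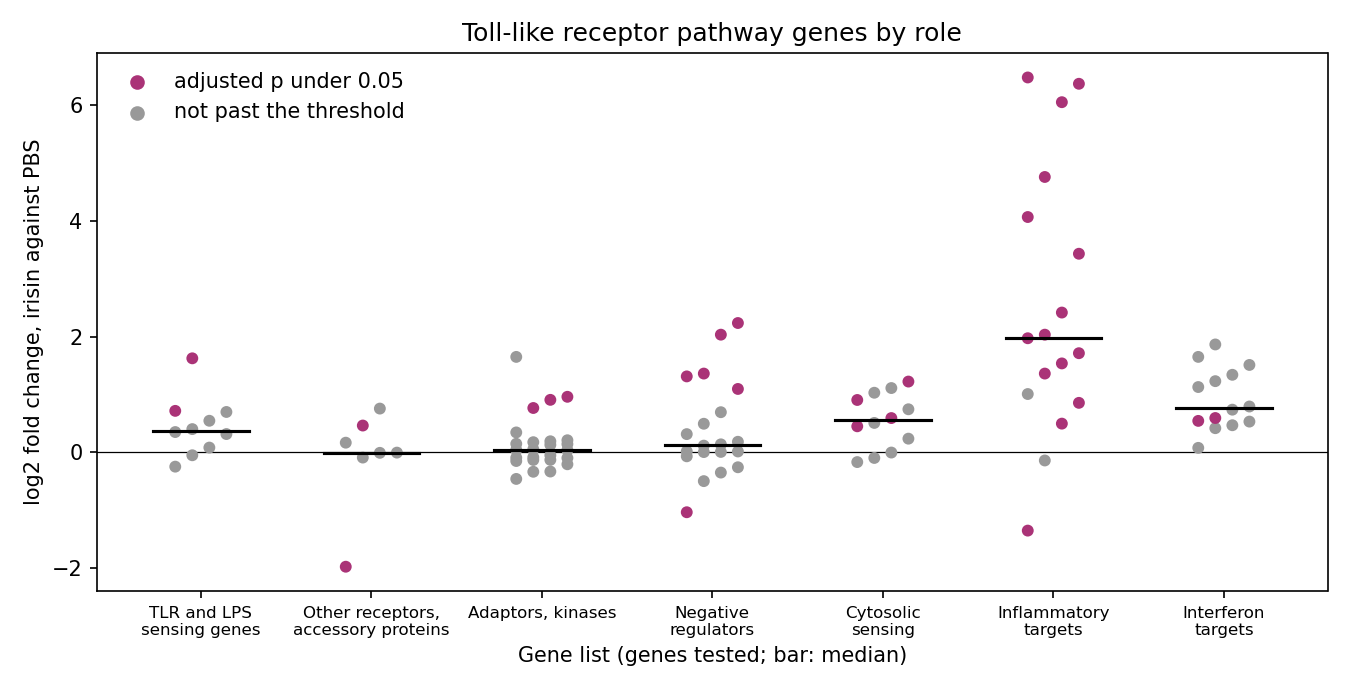
Log2 fold change of each tested gene, irisin against PBS, by role in the pathway, with the median as a bar and called genes in purple. The inflammatory targets have a median of 1.97, the 10 sensing genes 0.38 and the adaptors and kinases 0.04.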

How the data were processed

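Polyadenylated RNA of 6 libraries of cultured stromal cells was compared, 3 with PBS and 3 with irisin/HSP90α. Per the labels' protocols, lysates of plated cells were sequenced by the ImmGen ultra-low-input method. The submitters' processing notes name featureCounts, STAR 2.7.3a and the build mm10. No source used here gives the annotation release, the strand setting or the rule for multi-mapped reads. The authors deposited raw whole-number counts per gene symbol, and columns were matched to samples by title.

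From these counts edgeR 4.0.16 in R 4.3.3 computed TMM factors, kept genes with filterByExpr (count minimum 10) and compared irisin with PBS by its quasi-likelihood test (robust), adjusting p over all 12296 genes by Benjamini-Hochberg. The standard error is the log2 fold change divided by the root of F, and 95% intervals use the fit's degrees of freedom. CPM uses the sum of tested genes times the TMM factor. The alternatives were DESeq2 1.42.0, limma-voom 3.58.1, a replicate block, upper quartile or RLE factors, total counts alone, a count minimum of 50, no filter, and each library left out. A fit without both PBS replicate 3 and irisin replicate 1 was chosen after the data were seen. Scripts were tested on simulated data.

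The 10 genes and all lists were chosen with earlier results of these data known. Named from the lists were called genes, all where 8 or fewer and otherwise the 8 of lowest p, and others as examples. The 5 genes most like Tlr2, the gene of lowest p, were ranked by Pearson correlation of log2(CPM + 1) with predicted genes left out. Loci, exon lengths and shared windows are from GENCODE M21 (GRCm38), which matched 96.2% of the table's symbols.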

Additional observations from a re-analysis of the deposited data

How the results depend on the processing

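Of the 10 genes, Tlr2 was called in all 15 alternatives and Tlr3 in 13, and none of the other 8 was called in any, though a count minimum of 50 left Tlr1, Tlr5 and Tlr6 untested. The count of higher genes among the 10 ran from 1 to 2 and that of lower genes stayed at 0 when each library was left out. Over all genes, leaving out each library gave 336 to 705 higher and 238 to 585 lower, against 516 and 396. Total counts alone gave 422 higher and 602 lower, limma-voom 704 higher and 623 lower, and the fit without both PBS replicate 3 and irisin replicate 1 892 higher and 788 lower. In the lists, leaving out each library gave 0 to 1 accessory genes higher and 1 to 2 lower, 0 to 1 signalling genes lower, 1 to 2 negative regulators lower and 0 to 3 interferon targets higher. Total counts alone gave 1 signalling gene lower (Ikbkg), 2 negative regulators lower and 0 interferon targets higher. DESeq2 gave 1 interferon target higher, and limma-voom 2 negative regulators lower. With no filter, 2 accessory genes were lower, 1 signalling gene was lower and 6 interferon targets were higher. With both of the libraries that stood apart left out, 2 signalling genes, 2 negative regulators and 2 inflammatory targets were lower and 4 interferon targets higher.

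The labels number the replicates in each group but do not say whether equal numbers belong together. Over all genes tested, deviations from the group means correlated at -0.26, 0.20 and -0.20 for numbers 1, 2 and 3. These values show no common pairing by number over all genes, but they cannot exclude one that acts on some genes. Between unequal numbers the correlations ran from -0.27 to 0.40, the highest for PBS replicate 3 with irisin replicate 1. These are the libraries that stood apart on the second component, and a block by number does not model a link between them. Irf7 and Isg15 were highest in replicate 3 of both groups, and Adgre1 had counts only in replicate 3 of each group. With the replicate block, 422 genes were higher and 269 lower, 2 of the 10 genes were higher, and 6 interferon targets were higher. Those 6 were Irf7 (adjusted p = 0.00558), Isg15 (0.00174), Ifit1, Mx2, Oas1a and Stat2, none of them called in the fit reported in the sections above. Mx2 and Stat2 were also called with no filter and no block. The calls of Irf1 (0.0969), Isg20 (0.0775) and Gsdmd (0.0639) were not made with the block. Depth limits Tlr1, Tlr5, Tlr6 and Cd14 most, with 14 to 56 counts per library.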
